A study of Mus musculus with 4 samples.

Results

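Fibroblast growth factor (FGF) receptors are receptor tyrosine kinases that bind FGF ligands together with heparan sulfate and signal largely through the docking protein Frs2 to the Ras-ERK cascade. In the embryonic kidney this signalling acts in the nephron progenitors and in the ureteric bud. WT1 is a zinc-finger transcription factor made in nephron progenitors and in podocytes. The genes were taken from a fixed list of 8 names: the kinase receptors Fgfr1, Fgfr2, Fgfr3 and Fgfr4, the receptor Fgfrl1, which lacks a kinase domain, the adaptor Frs2, and Flrt2 and Flrt3, which encode leucine-rich repeat transmembrane proteins that bind FGF receptors. All 8 were found among 21887 protein-coding genes, and for each one every peak with its midpoint in the gene or within 50 kb of it was taken.

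WT1 occupancy was mapped by chromatin immunoprecipitation and sequencing (ChIP-seq) in microdissected kidneys of wildtype embryos at E18.5, bred on a mixed background, with C57Bl6 mated to B6DBA/F1. The 2 samples of the WT1 group were precipitated with a WT1 antibody and the 2 samples of the IgG group with IgG as a negative control. The IgG samples were not analysed here, and both WT1 samples belong to 1 group, so nothing was compared between groups and no test between samples was possible. The kidneys hold nephron progenitors, glomeruli, ureteric epithelium and stroma together, and peak lists do not measure transcripts, so a peak is not assigned to a cell type. WT1 replicates 1 and 2 held 53132 and 57641 peaks, each with 1 deposited value that is taken for a p-value or q-value, lower meaning more significant. A further deposited table held 17234 regions found in both lists, each with an irreproducible discovery rate (IDR), read here as the expected share of unreproducible regions among those ranked as high. The 4411 regions at or below an IDR of 0.05 are named reproducible. The depth behind a peak is unknown.

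Reproducible WT1 regions lay at Fgfr1, Fgfr2, Fgfr4 and Flrt2, and none lay at Fgfr3, Fgfrl1, Frs2 or Flrt3. Thus 4 of the 8 genes had at least 1 (exact Clopper-Pearson 95% interval of the share 15.7 to 84.3%), beside 26.1% of all protein-coding genes. The interval covers counting error over genes only, and it includes the share of all genes. The 8 genes were chosen with earlier results of these data known. The median gene length was 36.5 kb for the 8 genes and 17.2 kb over all protein-coding genes. Fgfr1, Fgfr2, Frs2 and Flrt2 are long, at 57.0 to 104 kb, which widens their windows. Fgfr3, Fgfr4, Fgfrl1 and Flrt3, at 12.7 to 15.9 kb, are shorter than the median of all genes. In total 27 regions of the overlap table fell in the 8 windows, and 7 of them were reproducible (25.9%, exact interval 11.1 to 46.3), beside 25.6% of the whole table. The windows together spanned 1.19 Mb and held 5.88 reproducible regions per Mb, against 2.20 per Mb in the windows of all protein-coding genes. Regions of the whole overlap table were denser there too, at 22.7 against 8.18 per Mb. So were peaks of replicate 1, at 41.2 against 23.0 per Mb, and of replicate 2, at 62.2 against 27.4. Of the 7 reproducible regions, 2 lay inside a member gene, both in Flrt2, and 5 lay outside. With midpoints required inside the gene, 1 of 8 genes was counted, beside 7.95% of all genes, and within 10 kb 2 of 8, beside 13.6%. The same 4 genes had a region at an IDR of 0.01, where 19.6% of all genes did. Any region of the overlap table was found at 6 of 8, beside 57.0%. With as many top peaks as there were reproducible regions, replicate 2 alone reached 5 of 8 genes, beside 26.2%, and replicate 1 alone 4 of 8, beside 24.7%.

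**Figure D1:**
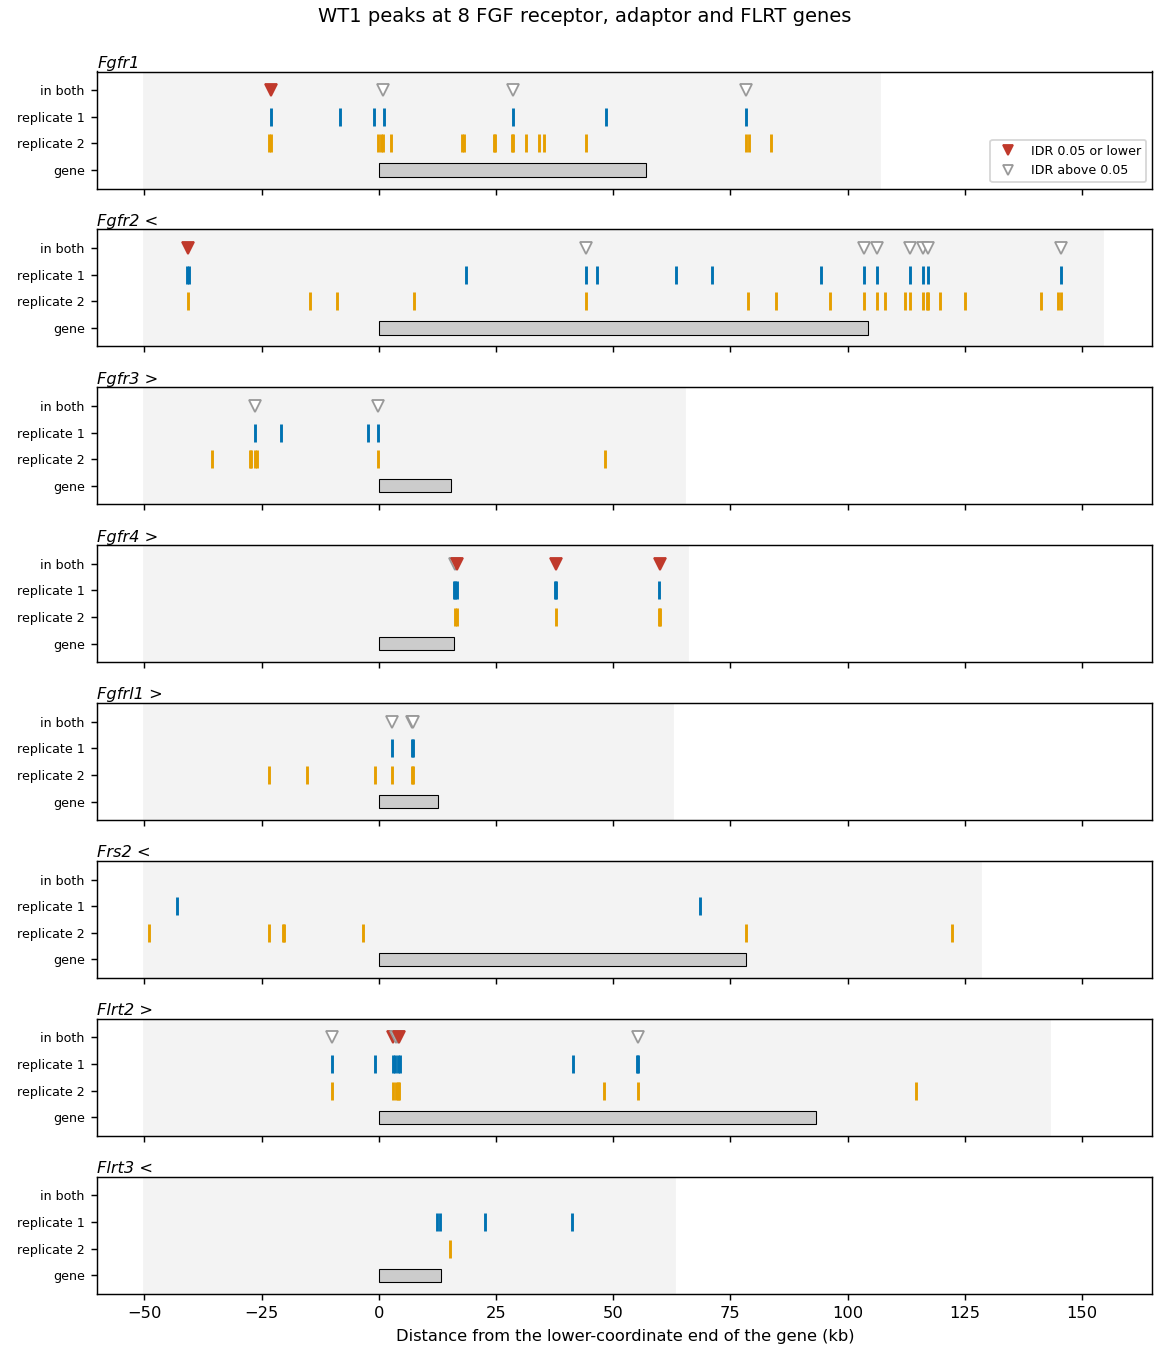
Positions of WT1 peaks at the 8 genes, as distance from the lower-coordinate end of each gene in kb. Grey bars are genes (> or < gives the strand where the promoter table has it), ticks are peaks of each replicate, and triangles are regions found in both, filled at an IDR of 0.05 or lower. Filled triangles appear at 4 genes, 1 each at Fgfr1 and Fgfr2, 3 at Fgfr4 and 2 at Flrt2.

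Promoter sequences were available for 7 of the 8 genes as windows from 250 bases before to 50 after an annotated start (RefSeq, GRCm38.p6); Fgfr1 is named only. Those of Fgfr3 and Frs2 are shown because a peak covered the promoter. At Fgfr4 and Flrt2, also shown, none did, although those have reproducible regions elsewhere. The same holds for Fgfr2, which is not shown, and neither are Fgfrl1 and Flrt3. Capitals mark GTGGGNG, the core common to WT1 and EGR family sites, on either strand, and its longer form GCGTGGGNG, which contains the core. Each sequence runs 5′ to 3′ on the strand of the gene.
Fgfr3, chr5:33721474-33721773, plus strand: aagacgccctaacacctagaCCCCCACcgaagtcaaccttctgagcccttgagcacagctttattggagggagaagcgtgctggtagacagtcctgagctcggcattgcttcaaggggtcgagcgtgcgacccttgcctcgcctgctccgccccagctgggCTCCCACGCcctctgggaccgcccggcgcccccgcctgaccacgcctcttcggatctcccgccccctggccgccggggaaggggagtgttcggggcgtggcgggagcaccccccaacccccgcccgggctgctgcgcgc
Frs2, chr10:117148425-117148724, minus strand: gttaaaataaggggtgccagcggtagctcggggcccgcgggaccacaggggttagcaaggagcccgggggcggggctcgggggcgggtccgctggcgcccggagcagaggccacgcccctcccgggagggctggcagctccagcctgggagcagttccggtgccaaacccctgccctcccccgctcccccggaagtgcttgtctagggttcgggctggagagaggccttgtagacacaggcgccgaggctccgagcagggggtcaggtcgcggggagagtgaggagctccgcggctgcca
Flrt2, chr12:95691976-95692275, plus strand: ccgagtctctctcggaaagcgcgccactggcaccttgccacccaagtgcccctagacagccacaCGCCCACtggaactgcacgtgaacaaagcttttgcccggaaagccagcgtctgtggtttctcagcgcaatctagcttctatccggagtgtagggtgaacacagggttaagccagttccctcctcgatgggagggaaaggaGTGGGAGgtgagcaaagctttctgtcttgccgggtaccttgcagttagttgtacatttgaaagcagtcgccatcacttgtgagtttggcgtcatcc
Fgfr4, chr13:55152568-55152867, plus strand: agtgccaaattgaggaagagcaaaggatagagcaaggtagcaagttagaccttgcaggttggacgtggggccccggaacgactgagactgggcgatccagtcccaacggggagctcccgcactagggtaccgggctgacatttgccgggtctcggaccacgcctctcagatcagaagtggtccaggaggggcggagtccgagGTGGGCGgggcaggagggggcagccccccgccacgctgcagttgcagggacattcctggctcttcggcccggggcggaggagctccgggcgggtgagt

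At Fgfr3 a region found in both replicates covered the first 192 bases of this window. It held both core matches, and the second, with its neighbours, reads CTCCCACGC, that is GCGTGGGAG on the opposite strand, and begins 89 bases before the annotated start. The Frs2 promoter held no match, and a peak of replicate 2 alone covered its last 199 bases. The Flrt2 promoter held 2 core matches and the Fgfr4 promoter 1, and neither was covered by a peak of either replicate. The promoters of Fgfr2, Fgfrl1 and Flrt3, which are not printed, held no match, and no peak overlapped them. Of the 513 promoter windows of protein-coding genes that overlapped a reproducible region, 53.6% held GTGGGNG and 13.1% GCGTGGGNG. The Fgfr3 region is not reproducible, and of the 1197 windows that overlapped any overlap region, 51.5% and 9.52% held them. Over all 21263 windows these shares were 33.8% and 2.41%. The mean GC content was 63.3% in windows with a reproducible region and 56.2% over all windows; the part of base composition in these shares was not tested. Fgfr3 has a second annotated start, whose window also held GCGTGGGNG, and no peak overlapped it. Counted by gene, an overlap region touched a promoter window at 1 of 7 members, beside 6.13% of the 17492 genes with a window, and a reproducible region at 0 of 7, beside 2.66%. A peak of replicate 1 did so at 1 of 7, beside 6.80%, and a peak of replicate 2 at 2 of 7, beside 12.1%.

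Among the kinase receptors, Fgfr1 and Fgfr2 carried the most significant regions of the 8 genes, each a single distant one. Fgfr1 (gene ID 14182; chromosome 8, 25518759 to 25575718), which acts in the kidney mesenchyme, had a region 23.1 kb beyond the lower-coordinate end of the gene (25495477 to 25495938, 462 bp wide, IDR 7.24e-07). Its deposited values were 9.55e-26 in replicate 1 and 3.57e-54 in replicate 2. It stood at rank 180 of the 17234 regions, and at ranks 305 and 222 among the peaks of replicates 1 and 2. No other protein-coding gene had an end nearer to it. The other 3 regions in the Fgfr1 window had IDRs of 0.181, 0.214 and 0.426. The one at 0.214, which was 21.3 kb outside Fgfr1, lay inside another protein-coding gene. The one next to the lower-coordinate end of Fgfr1, 1002 bp inside it, was far more significant in replicate 2 (2.21e-07) than in replicate 1 (0.0261).

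By absolute number of peaks, the replicates differed most at Fgfr1. Replicate 1 had 7 peaks in its window and replicate 2 had 19, of which 4 in each overlapped a peak of the other. Inside the gene itself there were 3 peaks of replicate 1 and 13 of replicate 2. As many as 19 peaks of replicate 2 were found at 1.89% of all protein-coding genes, and as many as 7 of replicate 1 at 14.2%. These shares are not adjusted for window length, and the Fgfr1 window spanned 157 kb. The most significant of the replicate 2 peaks without a partner lay 12.7 kb inside the higher-coordinate end (25562723 to 25563218, 1.16e-06).

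Fgfr2 (gene ID 14183; chromosome 7, 130162451 to 130266808, minus strand) encodes a receptor active in both the ureteric bud and the mesenchyme. It had 8 regions, the most of the 8 genes and a number reached by 1.54% of all protein-coding genes. This share is not adjusted for window length, and the Fgfr2 window spanned 204 kb. The reproducible region lay 40.7 kb beyond the 3′ end (130121302 to 130122138, 837 bp wide, IDR 3.07e-06). Here replicate 1 had 2 peaks, at 1.68e-05 and 4.6e-30, and replicate 2 had 1, at 2.06e-67, the lowest value of either list in any of the windows. It ranked 214 in replicate 1 and 141 in replicate 2. This region is nearer to Fgfr2 than to any other protein-coding gene. Among the top peaks of replicate 1 alone, as many as there were reproducible regions in the whole table, 4 lay in the Fgfr2 window, against 1 among those of replicate 2. Both replicate 1 peaks of the reproducible region were among those 4.

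Of the other regions of Fgfr2, 1 lay deep inside the gene, 44.1 kb from the 3′ end (130206477 to 130206656, IDR 0.267). The rest lay on the 5′ side, where there were 6, the closest 829 bp inside the 5′ end and the farthest 41.2 kb upstream. Among them, 3 lay within 4136 bp of one another, between 130275681 and 130279816. The last of these, 12.7 kb upstream (130279197 to 130279816), missed the threshold with an IDR of 0.0572, from values of 5.56e-09 in replicate 1 and 2.16e-06 in replicate 2. It is the region nearest to the threshold from above, and the second reproducible region of Flrt2, at 0.0397, is the nearest from below. A region 1847 bp upstream of the start had identical edges in both lists and values of 1.21e-04 and 0.00115 in replicates 1 and 2 (IDR 0.116).

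Fgfr4 (gene ID 14186; chromosome 13, 55152818 to 55168759, plus strand), known in the liver for control of bile acid synthesis, had 3 reproducible regions, a number reached by 2.90% of all protein-coding genes. All of them lay beyond its 3′ end. The first was 651 bp past the end (55169230 to 55169590, IDR 9.31e-06), with values of 8.88e-15 in replicate 1 and 8.98e-25 in replicate 2. A weaker region (IDR 0.385) lay 66 bp from it on the side of the gene, with 0.0118 in replicate 1 and 3.37e-12 in replicate 2, so it was strong in replicate 2 only. The second was 21.8 kb past the end (55190255 to 55190876, IDR 0.0322), with 1.37e-04 and 1.5e-21 in replicates 1 and 2. The farthest was 44.0 kb past it (55212450 to 55212978, IDR 0.0135), with 1.68e-06 and 2.49e-09. These last 2 are nearer to Nsd1, which encodes a histone methyltransferase, at 19.2 kb outside and 2.93 kb inside that gene. Only the first is therefore nearest to Fgfr4. Every peak in this window overlapped a peak of the other replicate, 6 of 6 in replicate 1 and 5 of 5 in replicate 2.

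Fgfr3 (gene ID 14184; chromosome 5, 33721724 to 33737068, plus strand), a receptor best known as a brake on bone growth, had no reproducible region, the nearest being 187 kb away. Its promoter region (33721377 to 33721665, centred 203 bp upstream of the gene's 5′ end) had values of 0.00294 in replicate 1 and 0.00127 in replicate 2 and an IDR of 0.240. Both replicates thus called it at similar values, and both ended it at the same base. The other region, 26.4 kb upstream, had an IDR of 0.225, and another protein-coding gene had an end nearer to it. Fgfrl1 (gene ID 116701; chromosome 5, 108694229 to 108706950, plus strand), whose loss in mice severely impairs kidney development, had 3 regions, all inside the gene and none reproducible, at IDRs of 0.105, 0.221 and 0.549. The lowest of these (108701270 to 108701462) had 0.00681 in replicate 1 and 7.21e-06 in replicate 2. All 3 peaks of replicate 1 in the Fgfrl1 window recurred in replicate 2, which had 3 more, all upstream of the gene. The nearest reproducible region to Fgfrl1 was 426 kb away, a distance reached or exceeded at 28.4% of all protein-coding genes. For the 187 kb of Fgfr3 this share was 47.2%.

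**Figure D2:**
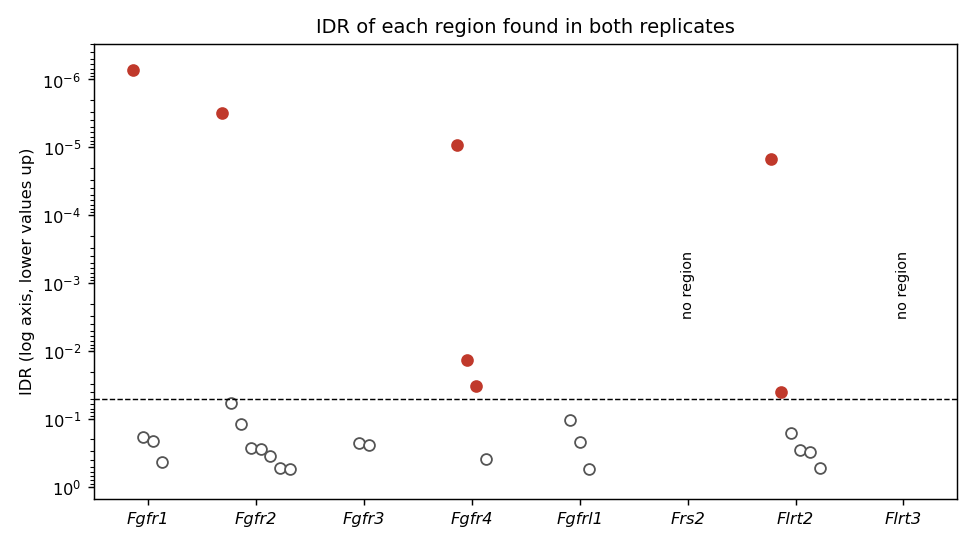
IDR of the 27 regions found in both replicates, by gene, on a log axis with lower values at the top. The dashed line marks 0.05; 7 regions of 4 genes lie above the line and 20 below it, and Frs2 and Flrt3 have none.

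The adaptor gene Frs2 (gene ID 327826; chromosome 10, 117070127 to 117148474, minus strand) had no region in common between the replicates. Replicate 1 had 2 peaks in its window, at 0.0215 and 0.0398, and replicate 2 had 7. The peak of replicate 2 across its start (117148408 to 117148623) had a value of 5.23e-05. A stronger one, 20.5 kb beyond the 3′ end (117049493 to 117049702), had 1.71e-08 and no counterpart in replicate 1. Of the 3823 peaks of replicate 2 with a value as low as that, 91 (2.38%) had no partner. The nearest reproducible region to Frs2 lay 76.0 kb away (117224190 to 117224817, IDR 8.28e-05), outside the window and the closest of those left out at any of the 8 genes.

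Flrt2 (gene ID 399558; chromosome 12, 95692006 to 95785215, plus strand) was the one gene of the list with reproducible regions inside it. A group of 4 regions spanned 1781 bp near its 5′ end (95694732 to 95696512), separated by gaps of 45, 69 and 180 bp. The first of them, centred 3.06 kb inside the gene, had an IDR of 1.46e-05, with 5.16e-10 in replicate 1 and 3.62e-25 in replicate 2. The last, 4.41 kb inside, had an IDR of 0.0397, with 0.00225 and 1.66e-06. The 2 between them had IDRs of 0.161 and 0.281, and each had 0.0106 in replicate 1. As many as 2 reproducible regions were found at 8.37% of all protein-coding genes, a share not adjusted for the 193 kb window of Flrt2. Taking from each replicate alone as many top peaks as there were reproducible regions in all, 2 of those of replicate 1 and 1 of those of replicate 2 lay in the Flrt2 window. In both replicates the peak of the first region was among them. The other one of replicate 1, at rank 234, overlapped no peak of replicate 2. The last region, at ranks 7656 and 5308 in replicates 1 and 2, was in neither set of top peaks.

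Flrt2 also held the most significant peak in the 8 windows that only 1 replicate had. It lay 38.2 kb inside the 3′ end (95746876 to 95747114), with a value of 3.09e-29 in replicate 1, rank 234 of its list, and no overlapping peak in replicate 2. Of the 234 peaks of replicate 1 with a value as low as this, it was the 1 without a partner (0.427%). A region found in both replicates began 67 bp further on, with 4.39e-04 in replicate 1 and 0.0297 in replicate 2 (IDR 0.532). Flrt3 (gene ID 71436; chromosome 2, 140658198 to 140671476, minus strand) had 4 peaks of replicate 1 and 1 of replicate 2, none of them overlapping, at values of 0.0156 or higher. Its nearest reproducible region was 3011 kb away, a distance reached or exceeded at 2.74% of all protein-coding genes.

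**Figure D3:**
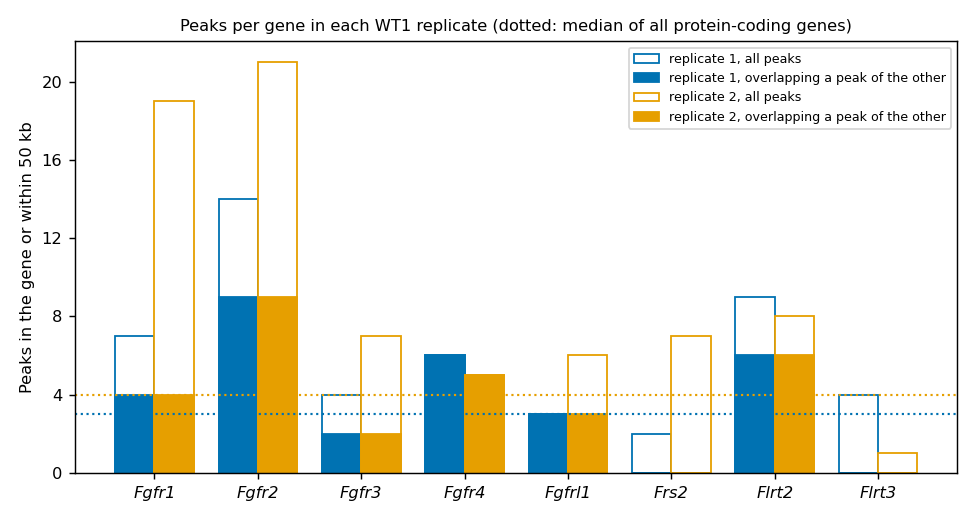
Peaks with a midpoint in the gene or within 50 kb, per gene and replicate; filled bars are peaks that overlap a peak of the other replicate, and dotted lines are the medians over all protein-coding genes (3 for replicate 1, 4 for replicate 2). Fgfr2 has 14 and 21 peaks and Fgfr1 7 and 19 in replicates 1 and 2, and no peak of Frs2 or Flrt3 is shared.

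Over the 8 windows, 30 of 49 peaks of replicate 1 overlapped a peak of replicate 2 (61.2%, exact 95% interval 46.2 to 74.8), beside 34.1% of all its peaks. Of the 74 peaks of replicate 2, 29 overlapped a peak of replicate 1 (39.2%, 28.0 to 51.2), beside 30.8% of all its peaks. With all values kept, the interval for replicate 1 lay above the share of its whole list, and the interval for replicate 2 included that of its list. With only values of 0.01 or lower in both lists, the replicate 1 interval also included the share of its whole list. Peaks of 1 window are not independent, so the intervals cover counting error only. Sharing in replicate 1 ran from 6 of 6 peaks at Fgfr4 to 0 of 4 at Flrt3. The intervals therefore do not decide whether the 8 genes differ from the whole lists. Values were lower, that is more significant, in replicate 2 for 20 of the 27 regions (74.1%), beside 75.4% of the whole overlap table, and for all 7 reproducible ones, beside 90.3% of all reproducible regions. The 7 reproducible regions had a median width of 529 bp against 197.5 bp for the other 20; over the whole table the median was 372 bp for reproducible regions and 224 bp for all regions.

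**Figure D4:**
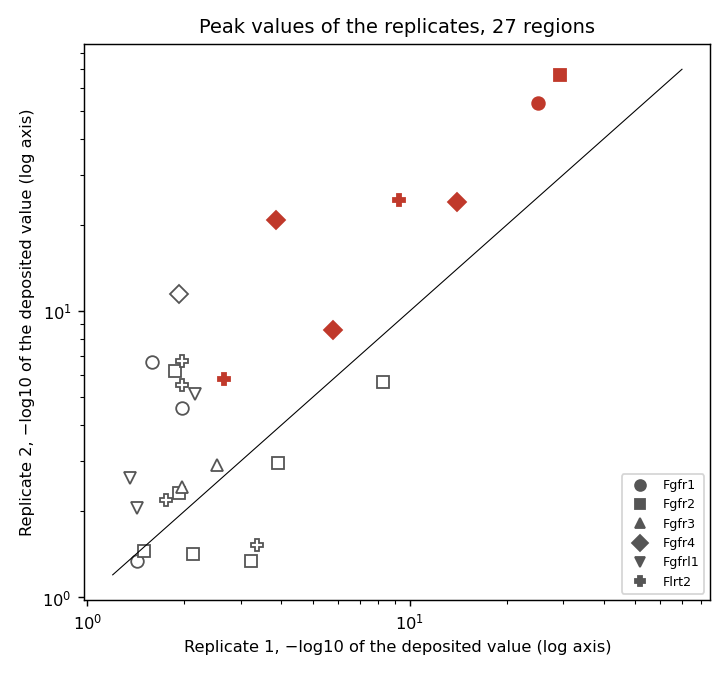
Deposited values of the 27 regions as −log10 in replicate 1 (x) and replicate 2 (y), both on log axes; the smallest value was taken where a region held several peaks. Filled symbols have an IDR of 0.05 or lower, the line marks equal values, and 20 of the 27 points lie above it.

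Peak edges were set beside the cut sites of the library preparation. Before adapter ligation the DNA had been digested by MseI together with AluI or HaeIII, per the labels' protocols. Where peak starts fell in promoter windows, 24.4% of those of replicate 1 and 17.1% of those of replicate 2 lay exactly at an AluI cut (AGCT), which makes up 0.535% of the positions there. At MseI cuts (TTAA) these shares were 6.44% and 5.64%, against 0.329% of positions, and at HaeIII cuts (GGCC) 0.704% and 0.654%, against 0.621%. For peak ends the HaeIII shares were 0.308% in replicate 1 and 1.52% in replicate 2 (exact interval 0.985 to 2.23), and the AluI shares 21.7% and 15.9%. The same start base in both replicates was seen in 29.6% of the 27 member regions, against 39.6% of all overlap regions, and the same end base in 29.6%, against 39.5%. The edges of the peaks at the Fgfr3 and Frs2 promoters that fell in the printed windows lay at none of these cuts.

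Of the other genes of the pathway, a list of 43 ligands (intracellular FGFs included), coreceptors, transducers, feedback inhibitors, target factors and paralogs, 20 had a reproducible region in the gene or within 50 kb (46.5%, beside 26.1% of all genes). By role these were 5 of 7 transducers, 5 of 7 feedback inhibitors, 2 of 3 target transcription factors and 6 of 22 Fgf genes. The share among the Fgf genes was 27.3%. This list too was chosen with earlier results of these data known. Whether the pathway exceeds other genes was not tested. The lowest IDRs were at Fgf21, a hormone-like ligand (1.99e-07, 45.4 kb outside), Spry4, a feedback inhibitor (6.67e-06, 30.2 kb outside), and Grb2, an adaptor that binds Frs2 (9.21e-06, 29.3 kb outside). Flrt1 was next, with 2 reproducible regions, the lower at 1.20e-05 inside the gene, so of the FLRT genes Flrt1 and Flrt2 had one and Flrt3 did not. Frs3, the paralog of Frs2, had 1 inside the gene at an IDR of 0.0188. The klotho coreceptor genes had none: Kl had no overlap region, with 2 and 4 peaks in replicates 1 and 2, and the lowest IDR at Klb was 0.524. For the regions of this pathway list, such as those outside Fgf21, Spry4 and Grb2, nearer ends of other genes were not looked for.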

How the data were processed

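Values are from 2 WT1 ChIP-seq samples of E18.5 mouse kidneys. Per the submitters' processing notes the build is mm10. The authors deposited 1 peak list per WT1 sample with a value per peak, read as a p-value or q-value since it runs from 0 to 0.0499, plus a table of regions common to both lists with a q-value-like IDR (5.19e-08 to 0.555). Not given in the sources used here are the aligner, the peak caller and any use of IgG reads. The tissue DNA went through restriction digestion and 18 rounds of PCR, per the labels' protocols.

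Gene positions and promoter windows came from RefSeq tables of GRCm38.p6, the assembly mm10 is based on; they give no exons. Positions count from 1. Midpoints placed peaks, and an overlap of 1 bp or more made peaks shared. A peak's rank counts all peaks with a value as low. Distances are to the nearer gene end. Shares have exact Clopper-Pearson 95% intervals (scipy 1.17.1). No test was run. Counting functions were tested on simulated peaks. Genes were named by rule: the 8 members, and genes with an end nearer than the member to a reproducible region of that member. Of the pathway list, the 4 with the lowest IDR were named, plus Flrt1, Frs3, Kl and Klb. Members and lists were chosen with earlier results of these data known. Motifs could be searched in promoter windows only.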

Additional observations from a re-analysis of the deposited data

How the results depend on the processing

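Fgfr1, Fgfr2, Fgfr4 and Flrt2 were counted at every IDR threshold tried. At 10 kb, 2 of the 8 genes and 3 regions were counted, beside 13.6% of all genes. With the midpoint inside the gene, 1 gene and 2 regions were counted, with 6 of the 43 other pathway genes. This stood beside 7.95% of all genes. An IDR of 0.01 left 4 regions, 1 at each of the 4 genes, beside 19.6% of all genes. All regions of the overlap table gave 27 regions at 6 genes (beside 57.0% of all genes) and 31 pathway genes. Each replicate alone was tried with as many top peaks as there were reproducible regions. This gave 4 to 5 of the 8 genes and 16 to 19 pathway genes, beside 24.7 to 26.2% of all genes. The peaks at the 8 genes numbered 8 to 10. Replicate 2 alone added Frs2 with 1 peak and left 1 peak at Flrt2 in place of 2 regions. Replicate 1 alone gave 4 peaks at Fgfr2 in place of 1 region, and 2 of these peaks lay in that region. Among peaks with values of 0.01 or lower in both lists, 12 of 16 of replicate 1 at the 8 genes were shared. This is 75.0% (exact interval 47.6 to 92.7), beside 56.4% of its whole list. For replicate 2 it was 13 of 41 (31.7%, 18.1 to 48.1), beside 31.4%. Both intervals include the share of the whole list, and like those for all peaks they cover counting error only. Regions were also placed by any overlap with the window, and peaks were required to overlap by 50% of both. Counts then stayed within 1.5 times the main counts, and shares inside the intervals given for all peaks of the 8 windows. No paired analysis was possible because the IgG samples were not analysed here and no result comes from a test. The files give no read depth, so a missing peak is not shown to be an absent site.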
